A study of Mus musculus with 4 samples.

Results

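A set of 10 genes of the urea cycle and hepatic nitrogen disposal was followed in mouse liver RNA. They include Cps1, Otc, Ass1, Asl, Nags, Slc25a15, Slc25a13, Got1 and Gls2, and each was taken from every non-control probe whose gene name in the scanner files is that symbol. All 10 were on the array, out of 30439 genes or transcripts, with 2 probes each for Otc and Ass1 and 1 probe for each of the others. Every probe of the 10 genes was well above background on all 4 arrays, and none was saturated, so no gene was lost to a filter.

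The urea cycle turns the ammonia released from amino acids into urea and takes place mainly in hepatocytes, most of all in those near the portal vein. Its first steps lie in the mitochondrial matrix and the later ones in the cytosol, so that ornithine, citrulline and aspartate must cross the inner mitochondrial membrane. One nitrogen of urea enters as ammonia and the other as aspartate, which ties the cycle to the transaminases and to glutamine breakdown.

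RNA came from livers of male C57BL/6J mice after 24 weeks of high-fat diet (HFD). Drp1LiKO mice carry a Cre transgene under the albumin promoter, active in hepatocytes, and 2 floxed alleles of Drp1 (gene symbol Dnm1l), the mitochondrial fission GTPase. The control mice (Cont) are littermates with the floxed alleles and no Cre according to the study's methods, while the labels call them wild type. Each genotype was measured on 1 array without refeeding and on 1 array after a fast of 17 h followed by 4 h of refeeding; the study's methods give a slightly shorter fast. The labels of the arrays without refeeding name no feeding state and give them as raw data shared with earlier submissions, and they are called fasted here only from the study's description. All 4 one-color Agilent arrays lie on 1 slide and in 1 scan.

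No group has a replicate array. Within a feeding state a difference therefore has no p-value, and a difference between 2 animals cannot be told apart from one between genotypes. Levels are processed signals on the log2 scale with the array's 75th percentile set to 0. That percentile was 461 in fasted Cont, 723 in fasted Drp1LiKO, 356 in refed Cont and 528 in refed Drp1LiKO liver. Each difference has a standard error (SE) built from the error model of the scanner software, which covers measurement error only and lay between 0.20 and 0.21 for the 10 genes. This SE was not estimated from repeated spots. Its median over all genes well above background on all 4 arrays also lay between 0.20 and 0.21 in each comparison. A limit of 2 SEs is therefore nearly the same fixed cut for most genes. A gene is called changed where 2 arrays differ at least 2-fold and the brighter signal is well above background.

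Dnm1l had log2 levels of 1.02 in fasted Cont, 0.81 in fasted Drp1LiKO, 0.66 in refed Cont and 0.54 in refed Drp1LiKO liver. The genotype differences of -0.21 and -0.12 are each within 2 measurement SEs of 0. Its probe covers chr16:16312331-16312390 (mm9), and since its position relative to the deleted exons is not known, this value does not check the genotype labels. The liver label was checked with 7 hepatocyte markers, all well above background on all 4 arrays, and Alb had log2 levels from 9.24 to 10.06. The order of arrays used for Dnm1l (fasted Cont, fasted Drp1LiKO, refed Cont, refed Drp1LiKO) is kept for every set of 4 levels that follows.

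The clearest values came from the refed pair of livers. There Got1 was 4.34-fold and Cps1 2.34-fold higher in Drp1LiKO than in Cont liver, and Asl and Slc25a15 were higher by smaller amounts. Slc25a13 was lower, Ass1 and Otc differed by less than 2 measurement SEs, and Nags and Gls2 by less than 1. In the fasted pair no gene of the 10 reached 2-fold, and the highest difference, that of Cps1, was 1.51-fold. Refeeding went with a 2.45-fold lower Got1 level in Cont liver, and with no 2-fold difference of any of the 10 genes in Drp1LiKO liver.

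**Figure D1:**
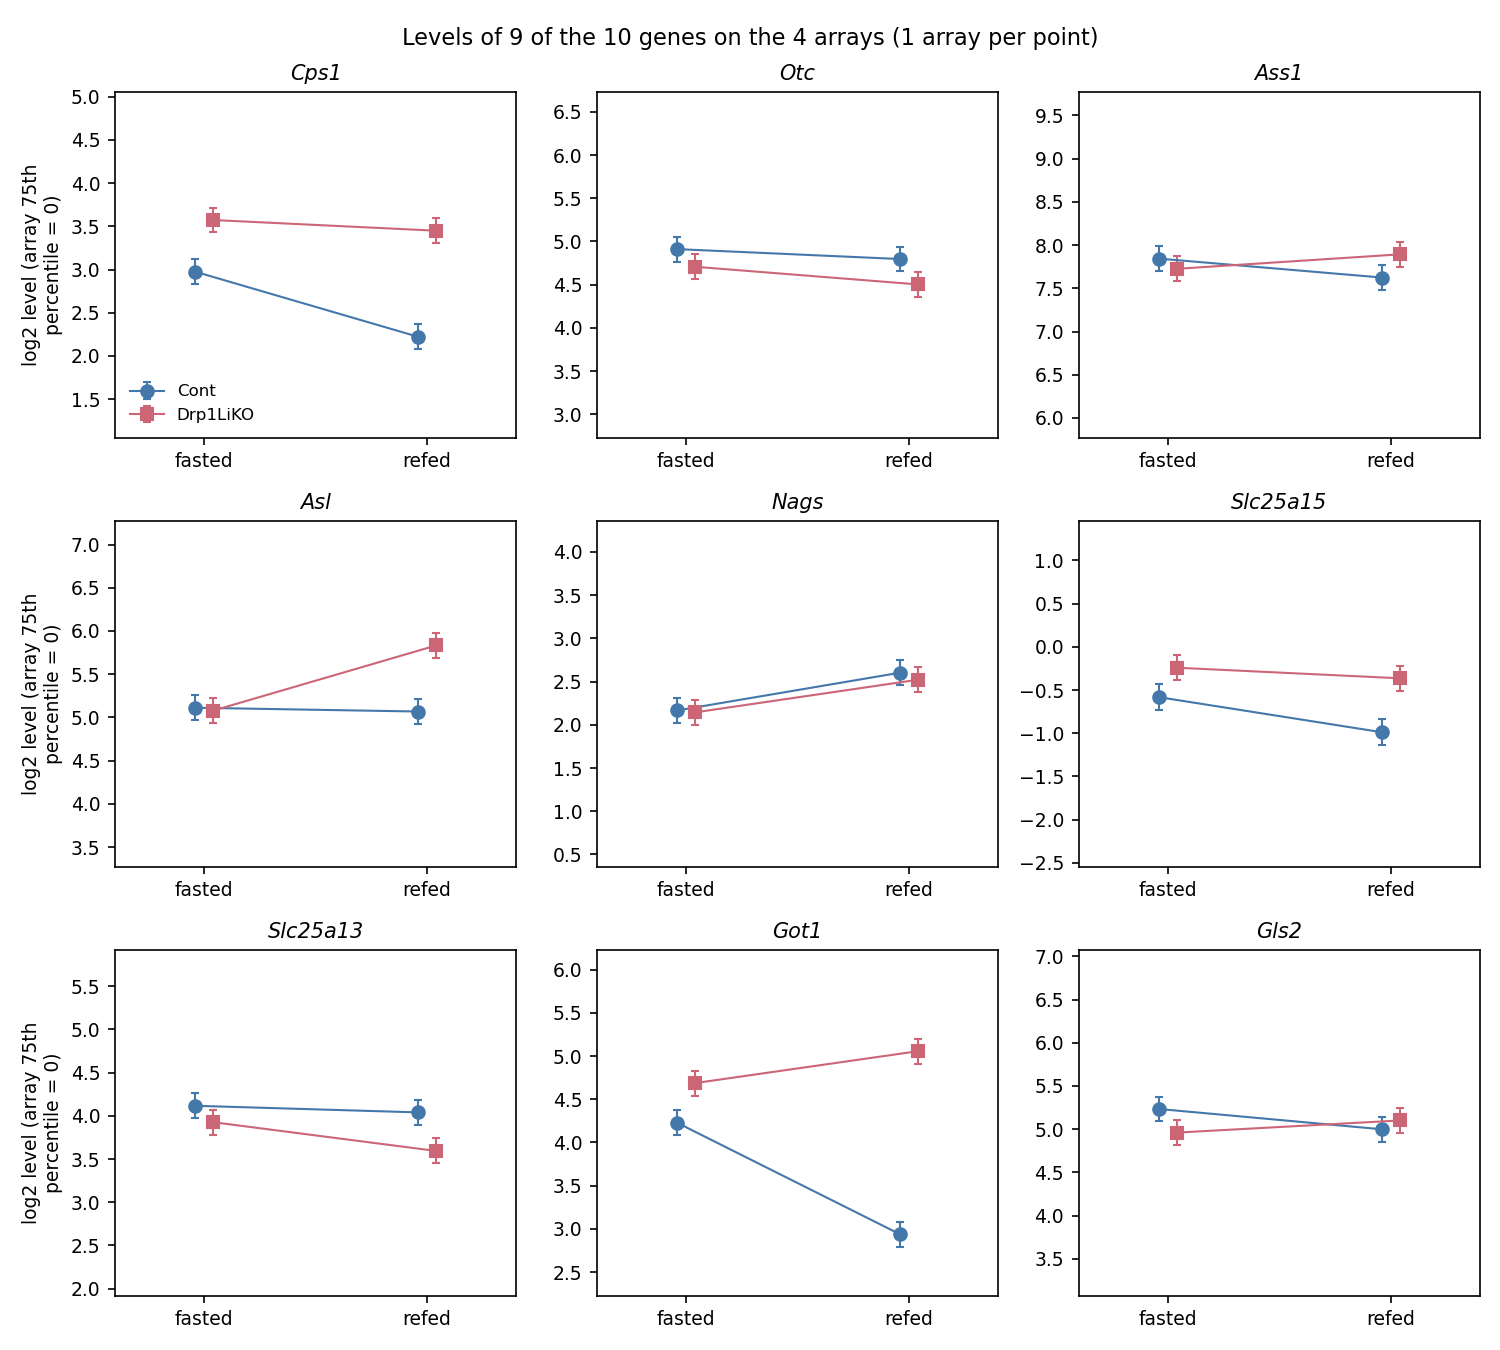
Log2 level of 9 of the 10 genes (y axis, array 75th percentile = 0, each panel spanning the same range) on the fasted and the refed array of Cont (circles) and Drp1LiKO (squares) liver; bars are the measurement SE of 1 array and lines join arrays of a genotype. Got1 spans 2.12 between refed Cont and refed Drp1LiKO liver, while the 4 levels of Ass1 and of Gls2 lie within 0.27 of each other.

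Entry of ammonia into the cycle depends on carbamoyl phosphate synthetase 1 (Cps1), the matrix enzyme that joins ammonia and bicarbonate. Its log2 levels were 2.97, 3.57, 2.22 and 3.45. Both Drp1LiKO livers lay above both Cont livers, and the lowest level was that of refed Cont liver. The genotype difference was 0.60 (SE 0.20) in fasted and 1.23 (SE 0.20) in refed livers, and the refeeding difference was -0.75 in Cont and -0.12 in Drp1LiKO liver. The sign of each of these 4 differences was the same under 6 other settings of the signal scale or of the probes, in which the refed genotype difference ranged from 1.23 to 1.33. The Cps1 value rests on 1 probe at chr1:67276029-67276088 (mm9, plus strand), shown here because it carries one of the 2-fold calls; it is an unbroken stretch of the genome, and 1 of its 3 forward reading frames has no stop codon.
Cps1 probe: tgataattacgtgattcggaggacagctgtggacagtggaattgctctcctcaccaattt

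Nags makes N-acetylglutamate, the obligatory activator of Cps1. Its log2 levels were 2.17, 2.14, 2.60 and 2.52. The livers of the 2 genotypes lay close together, and both refed livers were above both fasted ones. The refeeding difference was 0.44 (SE 0.20) in Cont and 0.38 (SE 0.20) in Drp1LiKO liver, with the same sign under all 6 other settings. Its genotype differences of -0.02 and -0.08 are within 1 measurement SE of 0 and change sign under 4 of the 6 settings.

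Otc, the X-linked matrix enzyme that makes citrulline from ornithine and carbamoyl phosphate, had 2 probes that disagree on the direction of the genotype difference. The brighter probe, at chrX:9897267-9897326 (mm9), gave levels of 4.91, 4.71, 4.80 and 4.50. On it the genotype differences were -0.20 and -0.29 (SE 0.20 each), and the fasted one changes sign under 3 of the 6 other settings. The other probe, printed 10 times on each array, gave 3.14, 3.34, 2.83 and 2.88, with genotype differences of 0.20 and 0.05. The SD of its repeated spots lay between 0.045 and 0.055 on the log2 scale. On both probes the refed level was below the fasted level of the same genotype, by values from -0.11 to -0.46, and neither probe reached 2-fold in any comparison. The repeated probe covers separate exons, since its 60 bases span chrX:9853843-9877490 (mm9, plus strand), and it is shown because it differs from the other probe in sign.
Otc probe printed 10 times: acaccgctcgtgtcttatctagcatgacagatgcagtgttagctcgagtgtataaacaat

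The next step, argininosuccinate synthetase (Ass1), joins citrulline and aspartate. The probe used for the gene had log2 levels of 7.84, 7.73, 7.62 and 7.89, and the other one 7.10, 7.08, 6.78 and 7.02. None of the 4 differences exceeded 2 measurement SEs on either probe. The refed genotype difference was 0.27 on the first and 0.24 on the second. The fasted genotype difference of -0.12 and the Drp1LiKO refeeding difference of 0.17 on the first probe both change sign under 3 of the 6 other settings, and on the second probe the latter was -0.07.

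Asl splits argininosuccinate into arginine and fumarate. Its log2 levels were 5.11, 5.08, 5.07 and 5.83. Refed Drp1LiKO liver stood above the other 3 livers, which lay within 0.04 of each other. The genotype difference was 0.76 (SE 0.20, 1.70-fold) in refed and -0.03 in fasted livers, and the fasted value changes sign under 4 of the 6 other settings. The refeeding difference was 0.75 in Drp1LiKO liver, which shrinks to 0.25 when each gene is centred on the 500 genes nearest to it in mean level, and -0.04 in Cont liver. The Asl probe spans chr5:130487964-130488549 (mm9, minus strand) with 60 bases and so joins separate exons of the spliced transcript, which is why it is shown.
Asl probe: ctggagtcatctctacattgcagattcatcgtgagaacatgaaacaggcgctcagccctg

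The mitochondrial carriers of the cycle differed from each other. Slc25a15, the ornithine and citrulline exchanger, had log2 levels of -0.58, -0.24, -0.99 and -0.36, with both Drp1LiKO livers above both Cont livers. Its genotype difference was 0.34 (SE 0.21) in fasted and 0.62 (SE 0.21) in refed livers, with 1 sign under all 6 other settings. Slc25a13, the aspartate and glutamate carrier citrin, had levels of 4.12, 3.93, 4.04 and 3.59, with refed Drp1LiKO liver the lowest. Its genotype difference was -0.45 (SE 0.20) in refed livers, between -0.45 and -0.29 under the other settings. In fasted livers it was -0.19, and it changes sign under 3 of the 6 settings.

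Got1, the cytosolic aspartate aminotransferase that can supply aspartate to Ass1, had the widest spread of the 10 genes. Its log2 levels were 4.23, 4.69, 2.94 and 5.06. Refed Cont liver was the lowest and refed Drp1LiKO liver the highest, so the 2 genotypes lay on opposite sides of both fasted livers after refeeding. Got1 was higher in Drp1LiKO liver by 0.46 (SE 0.20) in fasted and by 2.12 (SE 0.20) in refed livers. Its refeeding difference was -1.29 (SE 0.20) in Cont and 0.37 (SE 0.20) in Drp1LiKO liver. The refed genotype difference and the Cont refeeding difference share the refed Cont array, on which the level is low. Under the 6 other settings the former ranged from 2.12 to 2.27 and the latter from -1.53 to -1.29, and the Drp1LiKO refeeding difference was between 0.01 and 0.46.

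Promoter windows of RefSeq (GRCm38.p6) were given for 6 of the 10 genes, Ass1, Slc25a13, Slc25a15, Nags, Got1 and Otc, in 7 windows because Slc25a15 has 2 starts. The 250 bases before each start were searched on both strands for TGATGCAA, the core of the C/EBP-ATF composite element, for the cyclic AMP response element TGACGTCA and for the E-box CACGTG, 3 motifs whose letters overlap nowhere in these windows. Of 32851 windows of the same length, 0.79% hold TGATGCAA, 1.55% hold TGACGTCA and 6.02% hold CACGTG. Got1 alone among these genes holds TGATGCAA, written on the other strand as TTGCATCA and beginning 102 bases before the start. CACGTG was found 36 bases before the start of Ass1, 125 before that of Slc25a13 and 77 before one start of Slc25a15, and TGACGTCA in none of the 7 windows. A match describes the letters and does not show that a factor binds there. The Got1 window, shown because Got1 has the widest spread, is chr19:43524606-43524855 on the minus strand, with the motif in capitals.
Got1 promoter: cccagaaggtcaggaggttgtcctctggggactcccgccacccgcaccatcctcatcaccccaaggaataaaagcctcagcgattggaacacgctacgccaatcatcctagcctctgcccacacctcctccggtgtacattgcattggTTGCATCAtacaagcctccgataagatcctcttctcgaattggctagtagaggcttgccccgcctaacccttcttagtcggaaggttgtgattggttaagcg

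Gls2, the liver glutaminase that frees ammonia from glutamine in periportal hepatocytes, had log2 levels of 5.23, 4.96, 5.00 and 5.10. The 4 livers overlapped within measurement error, and no difference exceeded 2 SEs. The genotype difference was -0.27 in fasted and 0.10 in refed livers, and the refeeding difference -0.23 in Cont and 0.14 in Drp1LiKO liver. The fasted genotype difference and the Drp1LiKO refeeding difference change sign under 3 of the 6 other settings.

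**Figure D2:**
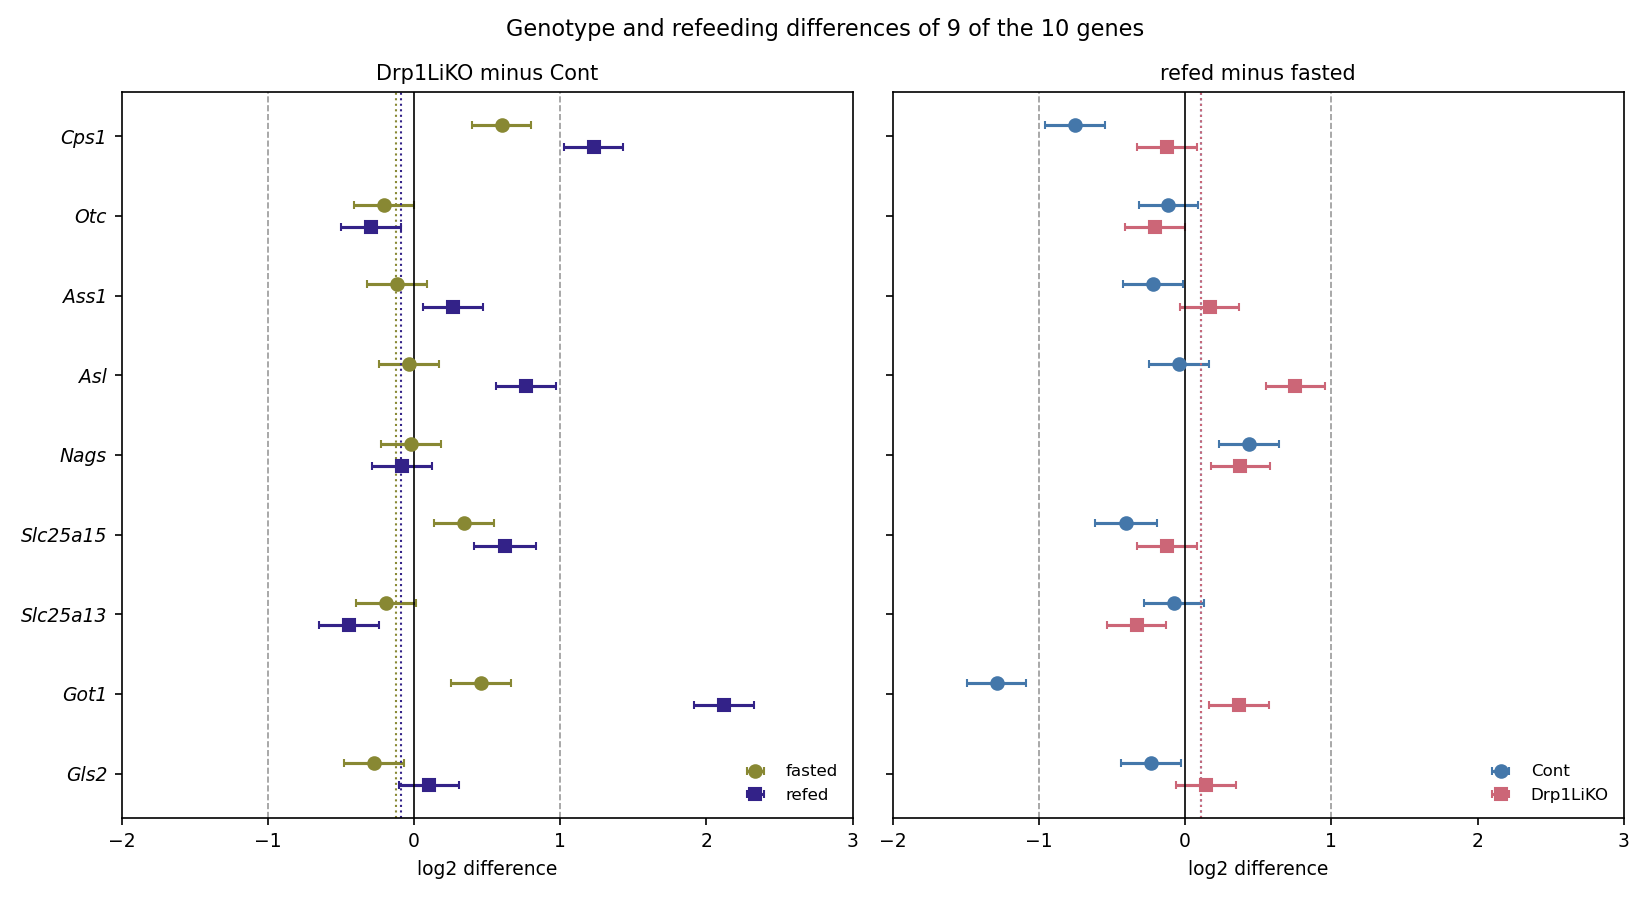
Log2 differences (x axis) of 9 of the 10 genes (y axis) between genotypes (left, fasted circles and refed squares) and between feeding states (right, Cont circles and Drp1LiKO squares); bars are the measurement SE, dashed lines mark a 2-fold difference and dotted lines the median of the 14447 genes that have signals well above background on each array. Got1 and Cps1 pass 2-fold in the refed genotype comparison, and Got1 also in the Cont refeeding comparison.

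Over the 10 genes, the fasted genotype comparison gave 4 higher and 6 lower values in Drp1LiKO liver and a median of -0.03. None was called at 2-fold, where 8.05% of 18040 genes measured on at least 1 of the arrays were higher and 5.23% lower. Cps1 and Got1 were above 0 by more than 2 measurement SEs. The median is 0.09 above that of all 14447 genes with such signals on each of the 4 arrays (-0.12), and it is 0.28 under quantile normalization, so that it has no settled sign.

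In the refed genotype comparison, 7 of the 10 genes were higher and 3 lower, with a median of 0.41, against -0.09 over the 14447 genes. Cps1 and Got1 were called higher and none lower, that is 2 of 10 genes, where 7.97% of 17446 genes were called higher and 6.39% lower. Among those more than 2 measurement SEs from 0 were Cps1, Asl, Slc25a15 and Got1 above it and Slc25a13 below it. The median was between 0.40 and 0.59 under the 6 other settings.

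In Cont liver, refeeding gave 1 higher and 9 lower values with a median of -0.17, against 0.11 over all 14447 genes. Got1 was called lower, where 5.81% of 16437 genes were, and none of the 10 was called higher, where 4.5% were. Cps1 and Got1 lay below 0 and Nags above 0 by more than 2 measurement SEs. The median ranged from -0.43 to -0.18 under the other settings.

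In Drp1LiKO liver, refeeding gave 6 higher and 4 lower values with a median of 0.15, against 0.11 over all 14447 genes. None was called, where 5.56% of 18329 genes were called higher and 7.2% lower. Asl alone exceeded 2 measurement SEs. With local centring the median was -0.22, with 3 genes above and 7 below 0, so the direction of the set in this comparison depends on the scaling.

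The refeeding difference of Drp1LiKO minus that of Cont liver, which equals the refed minus the fasted genotype difference, was positive for 7 of the 10 genes with a median of 0.38, against 0.03 over the 14447 genes. Got1 had 1.66 (SE 0.29), Asl 0.80 (SE 0.29) and Cps1 0.63 (SE 0.29), and the other 7 were each within 2 measurement SEs of 0. At least 2-fold higher was Got1 alone, where 1.82% of the 14447 genes were, and none of the 10 was at least 2-fold lower, where 2.42% were. The positive values kept their sign under all 6 other settings, and that of Got1 ranged from 1.42 to 1.77. No error between animals can be formed for this difference, and it was not tested.

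**Figure D3:**
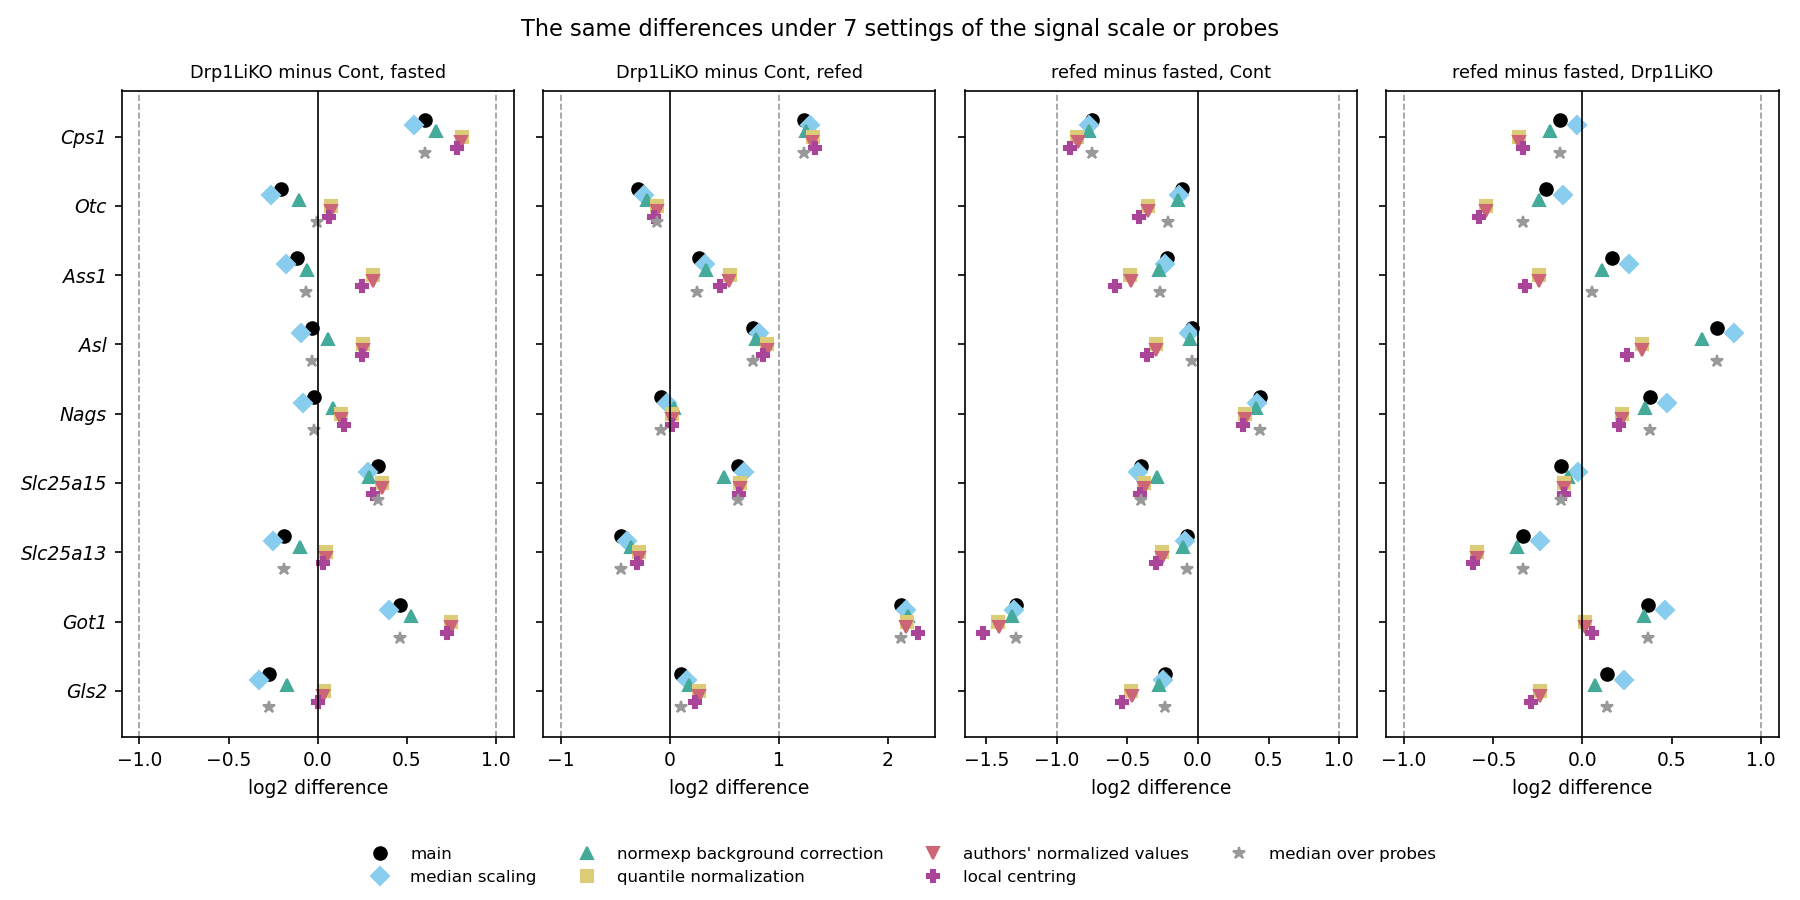
Log2 differences (x axis) of 9 of the 10 genes (y axis) in the 4 comparisons under 7 settings of the signal scale or probes (symbols); dashed lines mark a 2-fold difference, and x axes differ between panels. In the refed genotype comparison only Nags has values on both sides of 0, while the small values of the fasted comparison spread across it.

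Of the 40 differences (10 genes in 4 comparisons), 29 had 1 sign under the 7 settings and 11 did not. The median of all 14447 genes moved with the scaling, from -0.12, -0.09, 0.11 and 0.11 in the order of the comparisons above to -0.01, -0.01, 0.05 and 0.04 under quantile normalization. On every array 9 of the 10 genes, all but Slc25a15, lay above the 75th percentile, and the genes nearest to them in level were lower in Drp1LiKO liver, with medians of -0.27 in fasted and -0.12 in refed livers at the middle of the 10 genes. Relative to these neighbours the genotype median of the 10 genes was 0.25 in fasted livers, with 10 of 10 genes above 0 (Gls2 only just), and 0.55 in refed livers, with 8 of 10.

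An additive limma fit of genotype and feeding state over 16744 genes, with 1 residual degree of freedom, called 0 genes for genotype and 0 for refeeding after Benjamini-Hochberg adjustment (0% and 0%), while 4811 and 4458 genes had an unadjusted p under 0.05. Among the 10 genes, Cps1 (effect 0.91, 95% interval 0.28 to 1.55, adjusted p 0.121) and Slc25a15 (effect 0.48, adjusted p 0.165) were under 0.05 unadjusted for genotype, and Nags (effect 0.41, adjusted p 0.187) for refeeding. These are 2 and 1 of the 10 genes, smaller shares than the 4811 and 4458 of all 16744 genes, so the set does not stand out by this count. The fit treats the unequal refeeding differences as error, and Got1 had an effect of 1.29 with an interval from -0.07 to 2.65. With only the 14447 genes measured on all 4 arrays, limma called 1429 genes for genotype (9.89%) and 34 for refeeding (0.235%), none of them among the 10 genes, where Cps1 had an adjusted p of 0.0507. Over all settings of the fit, that of Cps1 lay between 0.0507 and 0.340.

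Genes around the cycle were taken from 5 further lists with 69 genes. Calls were made among those well above background on at least 1 of the 2 arrays compared. In the fasted genotype comparison 6 of 61 were called higher (9.8%) and 2 lower (3.3%), where 8.05% and 5.23% of all genes were. In the refed one 5 of 63 were called higher (7.9%) and 3 lower (4.8%), against 7.97% and 6.39% of all genes. After refeeding of Cont liver these were 2 of 60 (3.3%) and 1 (1.7%), against 4.5% and 5.81%, and in Drp1LiKO liver 4 of 62 (6.5%) and 3 (4.8%), against 5.56% and 7.2%. So the shares lie near or below those of all genes, apart from slightly larger shares of higher calls in the fasted genotype and the Drp1LiKO refeeding comparison. The 57 that passed this on every array had a median of -0.26, -0.17, -0.01 and 0.05 in these comparisons, that is -0.14, -0.09, -0.12 and -0.06 from the median of all genes.

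Transaminases and glutamate enzymes held the largest of these differences. Asparagine synthetase (Asns), which takes its nitrogen from glutamine, had log2 levels of -3.04, 0.74, -1.43 and 2.20. It was called higher in all 4 comparisons, by 3.78 and 3.64 between genotypes and by 1.61 and 1.47 with refeeding, past 2-fold under all 6 other settings, with 2.80 as the smallest fasted genotype difference. Gpt2, a mitochondrial alanine aminotransferase, was called higher in fasted Drp1LiKO liver by 1.28 (levels 3.19, 4.46, 3.25 and 3.58), and tyrosine aminotransferase (Tat) by 1.04 (4.46, 5.50, 4.22 and 5.19), which falls just short of 2-fold under median scaling. Glul, the glutamine synthetase of pericentral hepatocytes, was called lower in refed Drp1LiKO liver by a difference of -1.03 (levels 5.68, 4.75, 6.02 and 5.00), and is under 2-fold in 5 of the 6 other settings. The median of the 8 genes of this list measured on all arrays was -0.35 in fasted and -0.05 in refed livers, and the refed value changes sign under 5 settings.

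Among carriers, transporters and channels, Rhbg, an ammonia channel of pericentral hepatocytes, was called higher in fasted Drp1LiKO liver by 1.21, with 0.98 in refed livers. Slc1a2, a glutamate transporter, was called lower in fasted Drp1LiKO liver (-1.17; -0.78 in refed livers), and is just under 2-fold with local centring. The arginine transporter Slc7a2 was called higher in refed Drp1LiKO liver by 1.06, or by 0.79 under the setting with the smallest value. With refeeding of Drp1LiKO liver, the mitochondrial glutamate carrier Slc25a22 was called lower (-1.48), as were the amino acid transporters Slc38a2 (-1.23) and Slc38a4 (-1.22), which had -0.61, -0.92 and -0.59 in Cont liver. Slc25a2, another ornithine carrier, was well above background in refed Cont liver only, where it was at least 2.29-fold higher than in refed Drp1LiKO and at least 1.65-fold higher than in fasted Cont liver; the refeeding difference is under 2-fold in 1 of the 6 other settings.

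Of the supporting enzymes, Car5a, the mitochondrial carbonic anhydrase that supplies bicarbonate to Cps1, was called lower in Drp1LiKO liver in both feeding states. Its log2 levels were 3.99, 2.57, 4.05 and 2.87, and its genotype differences -1.42 and -1.19 (SE 0.20 each), past 2-fold under all 6 other settings. Odc1, which makes putrescine from ornithine, was called higher with refeeding of Drp1LiKO liver by 1.33, with 0.92 in Cont liver. Aldh18a1, an enzyme of proline and ornithine synthesis, was well above background in both Drp1LiKO livers and in neither Cont liver, where it allows only a bound, at least 1.05-fold higher in fasted and at least 1.57-fold in refed Drp1LiKO liver; the fasted difference is under 2-fold in 3 of the 6 other settings and has the other sign in 1 of these. It was called higher with refeeding of Drp1LiKO liver by 1.12, and is under 2-fold in 2 of the 6, with 0.61 as the smallest value. Pycr1, a proline synthesis enzyme, was well above background in refed Drp1LiKO liver only, at least 2.12-fold above fasted Drp1LiKO liver, but its difference is under 2-fold in 3 of the 6 other settings and has the other sign in 1 of these.

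Of 11 measured enzymes that release nitrogen from amino acids, 1 was called: Cth, the cystathionine gamma-lyase of transsulfuration, with log2 levels of 4.14, 4.91, 3.72 and 4.83 and a refed genotype difference of 1.11, in the comparison where 7.97% of all genes were called higher. Among 15 regulators, Ddit3, a stress-induced transcription factor, was called higher in Drp1LiKO liver in both feeding states, by 2.09 and 3.59, with levels of 0.29, 2.38, -0.50 and 3.10. Creb1 was called higher in refed Drp1LiKO liver, but its signal in refed Cont liver was not well above background and allows no fold, and the difference is under 2-fold in 2 of the 6 other settings. Ppargc1a, a coactivator of the fasting response, was called lower with refeeding of Cont liver by a difference of -1.01, with -0.86 in Drp1LiKO liver, and is under 2-fold in 3 of the 6 settings. The other 11 regulators well above background on all 4 arrays had genotype differences between -0.85 and 0.61.

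**Figure D4:**
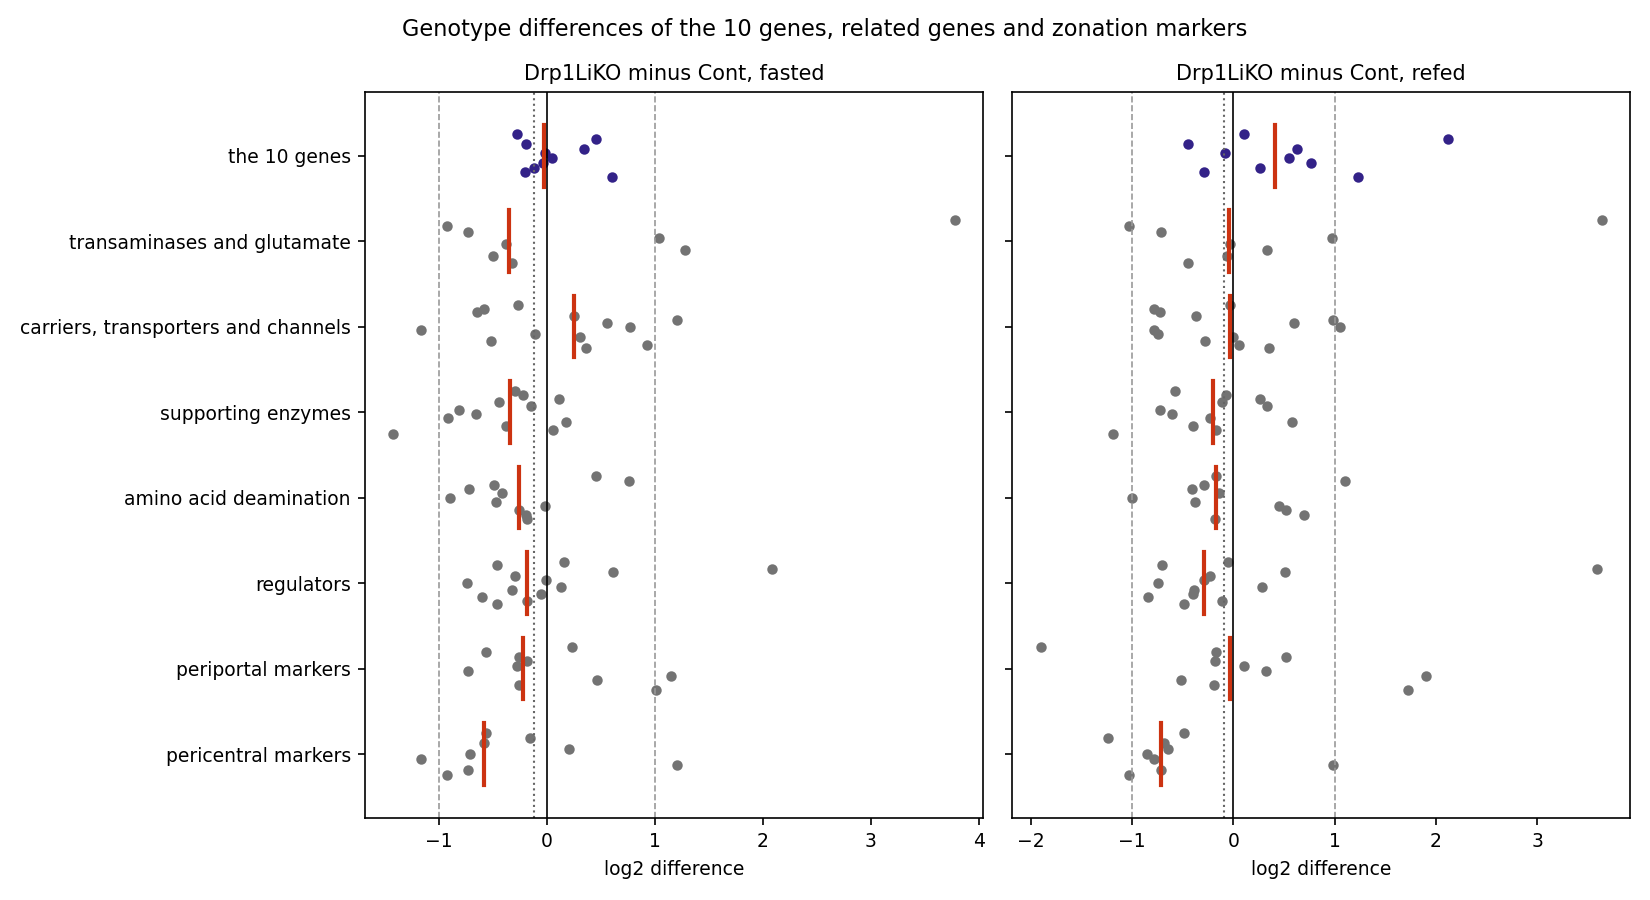
Genotype differences on the log2 scale (x axis) in fasted (left) and refed (right) livers for the 10 genes, 5 lists of related genes and markers of liver zones (y axis), for genes well above background on all 4 arrays; each point is a gene, red bars are list medians, dotted lines the median of 14447 genes and dashed lines 2-fold. The 10 genes have a refed median of 0.41, and pericentral markers a refed median of -0.72.

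Since urea cycle enzymes are periportal, markers of both liver zones were read beside them. Of 10 periportal markers, which include Gls2, Cdh1 and Aldh1b1 were called higher in Drp1LiKO liver in both feeding states, Cdh1 by 1.01 and 1.73 and Aldh1b1 by 1.15 and 1.90, and the fasted value of Cdh1 is under 2-fold in 2 of the 6 other settings. G6pc was called lower in refed Drp1LiKO liver (-1.90) and higher with refeeding of Cont liver (1.39), and Pck1 lower with refeeding of Drp1LiKO liver (-1.60). The periportal median was -0.22 in fasted and -0.04 in refed livers, with the other sign under 3 and 5 of the 6 settings. The 9 pericentral markers measured on all arrays, Glul, Rhbg and Slc1a2 among them, had genotype medians of -0.58 and -0.72, negative under all 6 settings. Against these medians, 2 of the 9 were higher in fasted Drp1LiKO liver (Rhbg 1.21 and Cyp1a2 0.20) and 1 in refed Drp1LiKO liver (Rhbg 0.98). Of the 9, Tbx3 (-1.24) and Glul (-1.03) were called lower in refed Drp1LiKO liver, where 6.39% of all genes were. Glul is under 2-fold in 5 of the 6 other settings. In the fasted comparison Slc1a2 was called lower (-1.17) and Rhbg higher (1.21), where 5.23% and 8.05% of all genes were. Axin2, a pericentral marker left out of these medians, was not well above background in fasted Cont liver. It was at least 2.12-fold higher in fasted Drp1LiKO liver, but its difference falls to 0.12 and under 2-fold in 1 of the 6 other settings. In whole liver, fewer cells of a type and less RNA per cell cannot be told apart. The part of liver zones in the values of the 10 genes was not tested.

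The 7 hepatocyte markers, led by Apoa2, had a median genotype difference of -0.62 in fasted livers, which is 0 under quantile normalization, and of -0.59 in refed livers, which is -0.13 at its weakest. One of them was called between genotypes, Cyp3a11, lower in refed Drp1LiKO liver (-1.84), where 6.39% of all genes were called lower, and it was also called lower with refeeding of Drp1LiKO liver (-1.80). Their summed level on the log2 scale was 11.74, 11.15, 12.07 and 11.45. All 8 macrophage markers, led by Cd5l, were well above background on all 4 arrays, with a summed level of 6.57, 6.77, 6.73 and 7.52. They had a median genotype difference of 0.16 in fasted and 0.55 in refed livers, with 8 of 8 higher in refed Drp1LiKO liver, the array on which Got1 and Asl were also highest. Vsig4 was called higher in the refed genotype comparison only (1.03). Marco was called higher in all 4 comparisons, by 1.65 in the fasted and 1.60 in the refed genotype comparison and by 1.34 and 1.30 with refeeding of Cont and Drp1LiKO liver, so its differences are not confined to that array. The part of macrophages in the values of the 10 genes was not tested.

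Other cell types gave genotype medians, in fasted and then refed livers, of -0.96 and 0.47 for 4 monocyte and neutrophil markers, -0.32 and -0.35 for 3 lymphocyte markers, and 0.81 and 0.72 for 2 cholangiocyte markers. These medians leave out markers not well above background on every array, and some of those went the other way. Among monocyte and neutrophil markers, S100a8 and S100a9 were called lower in fasted Drp1LiKO liver (-1.04 and -1.11), where Ccr2 was called higher (at least 1.61-fold). S100a8 and S100a9 were 0.93 and 1.04 higher in refed Drp1LiKO liver, the latter called. Both were called higher with its refeeding (2.35 and 2.20), so they too were highest on the array where Got1 and Asl were. Itgam, the brightest marker of this list, was lowest on that array (levels 2.71, 1.82, 1.98 and 1.31). Ly6g differed by 0.02 between the refed genotypes. Of the cholangiocyte markers left out, Sox9 was called higher in Drp1LiKO liver in both feeding states, by 1.24 in fasted livers and at least 3.16-fold in refed ones, as the median has it, while Cftr was called lower in fasted ones (at least 2.21-fold). Of the lymphocyte markers, Ptprc was called higher in Drp1LiKO liver in both feeding states, by 1.20 in fasted livers and at least 2.31-fold in refed ones. Cd3g was at least 2.40-fold higher in fasted and at least 1.73-fold higher in refed Drp1LiKO liver, so lymphocyte markers have no common direction. Genotype medians were 0.82 and -0.19 for 6 stellate cell markers, 0.08 and -0.14 for 6 endothelial markers, -0.88 and -0.63 for 2 erythroid markers (in refed livers Hba-a1 0.04 and Alas2 -1.30), and -0.04 and -0.43 for 2 markers of pancreas and gut. The refed stellate and endothelial medians change sign under 1 setting each, and the fasted one of pancreas and gut under 4. The adipocyte markers Adipoq, Plin1, Retn and Lep were not well above background on any array. Cfd, which is not specific to adipocytes, had genotype differences of -5.07 and -6.28, while Cidec of the same list was called higher in fasted Drp1LiKO liver (1.58) and had -0.25 in refed livers. The part of these cells in the values of the 10 genes was not tested.

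Of the enzymes Cps1, Otc, Ass1 and Asl, Cps1 alone had a range over the 4 arrays of at least 1 on the log2 scale (1.35). The genes closest to it by Euclidean distance over 4 mean-centred log2 levels were Prelid2 (0.04), Ifi203 (0.09) and 1500012F01Rik (0.14). Their refed genotype differences were 1.21, 1.25 and 1.11, near that of Cps1 because the genes were picked by these same 4 levels. Within a distance of 0.5 lay 221 genes.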

How the data were processed

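Liver RNA of 4 mouse groups was measured on 1 Agilent array each. The intensity values deposited by the authors are linear scanner signals, background-subtracted within each array per the file headers (Feature Extraction 10.7.1.1; the labels name 9.5.1.1). The probe flags and names in the deposited files were used as the authors' software wrote them. The authors' second table holds quantile-normalized linear intensities of the same arrays (column medians 39.6, 39.5, 39.6 and 39.7) and served as an alternative.

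Signals were log2-transformed and set relative to the array's 75th percentile. Spots flagged as outliers were left out (37 of 39429 probes lost) and repeated spots averaged. A gene was read from the probe well above background on the most arrays, then the brightest. RefSeq accessions were matched to GRCm38.p6 names for 26733 of 28358 probes. Between 48.7% and 58.2% of 43020 gene spots were well above background. A signal not well above background was read as a bound, at its own value or at that array's lowest signal among probes well above background, whichever is higher. Lists were summarized by their genes measured on every array.

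One of the 10 genes counts in the summaries of the set and is not reported here on its own. The genes named are the others of the 10, Dnm1l, every gene of the related and zone lists past 2-fold, the 3 nearest genes of each cycle enzyme with a range of at least 1, and cell type markers. Members and lists were chosen with earlier results of these data known. Alternatives were median scaling, quantile normalization, the authors' normalized values, normexp background correction (offset 50), centring on the 500 nearest genes, the median over probes, a 1.5-fold threshold and other filters. The limma genotype term and the 2-fold rule were tried on simulated arrays with a genotype effect alone. These held no refeeding effect and no difference of refeeding between genotypes, so the other steps were not tried this way. Python 3.11.15, numpy 2.4.6, pandas 2.3.3, R 4.3.3 and limma 3.58.1 were used.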

Additional observations from a re-analysis of the deposited data

Results flagged for a closer look

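For Got1, Asl, Ass1 and Gls2, refeeding went opposite ways in the 2 genotypes, lower in Cont and higher in Drp1LiKO liver by sign alone. Of these single differences (SE 0.20 each), only those of Got1 in Cont (-1.29) and Asl in Drp1LiKO liver (0.75) exceed 2 measurement SEs. For Ass1 the opposition holds on 1 of its 2 probes, since on the other refeeding was lower in both genotypes (-0.32 and -0.07). The refeeding difference of Drp1LiKO minus that of Cont was 1.66 for Got1, 0.80 for Asl, 0.39 for Ass1 and 0.38 for Gls2 on the log2 scale. Ass1, Asl and Gls2 also had opposite genotype differences in the 2 feeding states, while those of Got1 had the same sign. The fasted values of -0.12, -0.03 and -0.27 behind this are within 2 measurement SEs of 0 and turn positive under 3, 4 and 3 of the 6 other settings, so this opposition is not settled. Each direction comes from 1 array per group, and the difference between genotypes was not tested. With a measurement SE of 0.29, Got1 and Asl lie beyond 2 SEs and Ass1 and Gls2 within them. The Drp1LiKO refeeding differences of Ass1 (0.17) and Gls2 (0.14) change sign under quantile normalization, in the authors' normalized values and with local centring. Those of Got1 (0.37) and Asl (0.75) keep their sign but fall to 0.01 and 0.25 at their lowest, within 2 measurement SEs of 0. The Cont refeeding difference of Asl is only -0.04. So opposite directions of refeeding are not settled for Got1 and Asl either.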

How the results depend on the processing

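For medians and 2-fold counts of the 10 genes and the numbers of limma calls, 66 of 84 values under other settings stayed within 1 measurement SE of the value in the report, or, for counts, within 1.5 times. The fasted genotype median, -0.03, was 0.28 under quantile normalization and in the authors' normalized values and 0.25 with local centring. The Cont refeeding median, -0.17, was -0.37, -0.37 and -0.43 in the same order, and the Drp1LiKO refeeding median, 0.15, was -0.17, -0.17 and -0.22. A 1.5-fold threshold called 1 gene in the fasted and 4 in the refed genotype comparison, 2 with refeeding of Cont and 1 of Drp1LiKO liver. Shares of all genes were taken at 2-fold only, so these counts have no share beside them and are not read as a result. Counting each probe on its own, chosen after seeing the data, changed no count. limma's genotype calls, 0 in the report, were 1429 among genes well above background on all 4 arrays, 774 with an intensity trend, 620 with normexp and 1 without feeding state in the model; refeeding calls were 34 with the first of these. None of the 10 genes was called in any limma fit. The cause of these shifts was not tested. Of 240 values of the 10 genes, 174 moved by less than 1 measurement SE and 66 by more, and no 2-fold call among them changed sign. Normexp cut the 2-fold calls over all genes from 2396 to 927 in the fasted and from 2505 to 1074 in the refed genotype comparison, and from 1695 to 731 and from 2339 to 884 with refeeding of Cont and Drp1LiKO liver, so the shares of all genes given as a yardstick depend on it. It also turned the split of these calls, from 60.6% to 38.5% higher in the fasted and from 55.5% to 33.6% in the refed genotype comparison, and from 43.7% to 60.9% and from 43.6% to 56.0% with refeeding of Cont and Drp1LiKO liver. Local centring raised the genotype splits to 71.4% and 66.7%. No array can be left out of the additive fit, since without one it has no residual degree of freedom. No paired analysis was possible because each group has 1 array. The limits are 1 array per group, a feeding state of the fasted arrays that the labels do not name, an SE without differences between animals, and signals that for dim genes give only bounds.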
